A study of Mus musculus with 2 samples.

Results

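Pi16, Dpp4, Cd248, Procr, Sema3c, Ly6c1, Anxa3 and Limch1 are 8 genes of the fibroblast progenitor program, followed here over the fibro-adipogenic progenitors (FAPs) of mouse muscle. FAPs are mesenchymal cells of the muscle interstitium that carry Pdgfra and Cd34. A cell was taken as a FAP when it had at least 1 unique molecular identifier (UMI) of Pdgfra and Cd34 together and at least 50 UMIs of Dcn (decorin), so these 3 genes defined the cells and are no finding. The 8 genes are 8 of the 27998 genes in the matrices, and all were detected in both tissues. The genes were selected on their UMI levels and shared pattern over these same cells, with earlier results of these data known. Their levels and their co-expression are therefore described and not tested.

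The data were 2 droplet single-cell RNA-seq libraries of mononuclear cells from C57BL/6J mice, with 1 made from the quadriceps of the leg and 1 from the diaphragm, which drives breathing. The mice were untreated as far as the labels say, and the labels give neither their age nor their sex. A total of 10 mice were used, and the cells of several animals were pooled into 1 library per tissue after collagenase and dispase digestion, a density gradient and a sort on light scatter alone. There was no replicate, so tissue, animals and library cannot be told apart, and intervals below are 95% intervals that cover counting error only.

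The FAPs numbered 1861 of 5159 barcodes in quadriceps and 1603 of 2499 barcodes in diaphragm, and their median depth was 11209 and 13089 UMIs. They were 85.7% and 96.6% of the barcodes kept by the filters on UMIs and mitochondrial share. The 7 FAP markers summed to 68182 and 63616 CPM, the UMIs of a gene scaled to a common total, in the FAPs. They include the 3 gate genes, with Dcn alone at 21266 and 18338 CPM, so this sum is no check of the gate. T cell markers summed to 1.88 and 1.53 CPM and endothelial markers to 8.09 and 21.5 CPM. Mural cell markers were higher, at 254 and 55.6 CPM, and Schwann cell markers were at 92.9 and 7.38 CPM. Tenocyte markers were higher in diaphragm FAPs, at 1472 CPM against 398, and immediate early genes, which respond to handling, reached 13482 CPM against 2104. The libraries shared 5 barcode sequences, of which 3 in quadriceps and 1 in diaphragm belonged to FAPs. At the edge of the Dcn limit, Pi16 was at 6807 CPM in the 15 quadriceps cells with 50 to 59 Dcn UMIs and at 1899 CPM in the 9 cells with 40 to 49. The same ranges held 5 cells at 1480 CPM and 1 cell with no Pi16 UMI in diaphragm.

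Fibroblasts that carry Pi16 and Dpp4 are known from many tissues, where they lie in the adventitia and in sheaths around organs and are thought to give rise to more specialised fibroblasts. In skeletal muscle they form part of the FAP pool, beside FAPs of the interstitium that are richer in basement membrane and chemokine genes. Most products of the 8 genes sit at the cell surface or are secreted, which has made several of them useful for sorting.

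The surface and secreted members come first. Pi16 (chr17:29317680-29330593, GRCm38, plus strand) encodes peptidase inhibitor 16, a membrane-anchored protein with a CAP domain. Dpp4 (chr2:62330073-62412231, minus strand) encodes a membrane dipeptidase that trims chemokines and incretins. Cd248 (chr19:5068078-5070682, plus strand) encodes endosialin, a C-type lectin transmembrane protein of stromal cells. Procr (chr2:155751117-155755471, plus strand) encodes the endothelial protein C receptor. Ly6c1 (chr15:75044018-75048830, minus strand) encodes a lipid-anchored Ly6 family antigen. Sema3c (chr5:17574281-17730268, plus strand) encodes a secreted semaphorin, the only ligand among the 8. The intracellular members are Anxa3 (chr5:96793339-96845966, plus strand), a calcium-dependent phospholipid-binding annexin, and Limch1 (chr5:66745827-67057158, plus strand), a LIM and calponin homology domain protein linked to non-muscle myosin.

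Ly6c1 has a close copy, Ly6c2 (chr15:75108158-75111970, GRCm38, minus strand), so their sequences are shown for what a count of Ly6c1 can mean. In the GENCODE M21 transcripts the 393 coding bases were 97.7% identical, and the last 200 bases of the transcripts, nearest to where 3′ libraries are read, were 90.8% identical over an alignment of 207 columns. The longest identical run in the coding sequence was 188 bases. The first 120 coding bases held 6 differences, which are in capitals.
Ly6c1: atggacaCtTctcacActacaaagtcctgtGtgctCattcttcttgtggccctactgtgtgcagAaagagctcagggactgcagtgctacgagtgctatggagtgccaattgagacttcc
Ly6c2: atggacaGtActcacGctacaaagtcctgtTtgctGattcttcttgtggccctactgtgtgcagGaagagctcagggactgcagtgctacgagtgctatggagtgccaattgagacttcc

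The files nevertheless gave the copies different patterns. Ly6c2 was at 0.69 CPM in quadriceps FAPs and 0.05 CPM in diaphragm FAPs, where Ly6c1 was at 1130 and 369 CPM. Ly6c2 was instead at 312 CPM in the quadriceps NK cell-like cluster, which also had 6 raised T cell markers, and 266 CPM in the diaphragm T cell-like cluster, where Ly6c1 was at 47.4 and 20.1 CPM. How reads that match both copies were counted is not given in the sources used here, so Ly6c1 levels are less certain than those of the other members.

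The promoters were read because the members varied together over cells. RefSeq (GRCm38.p6) start sites were at hand for 6 of the 8 genes. Cd248 and Anxa3 had no entry. The 250 bases before the start are given 5′ to 3′ on the gene's strand for Dpp4, whose RefSeq and GENCODE starts coincide. The windows of Pi16 and Procr run into exons of other annotated transcripts and are not shown. Those of Sema3c and Limch1 and the second window of Ly6c1 also overlap the GENCODE span of their gene. All of these windows enter the counts below. Capitals mark matches on either strand to 5 motifs. These are the AP-1 motif, spelled TGANTCA, the TEAD motif, spelled GGAATG, the SP factor motif, spelled GGGCGG, the TATA box, spelled TATAAA, and the CCAAT box. The matches in the window shown do not overlap.
Dpp4, chr2:62412232-62412481, minus strand: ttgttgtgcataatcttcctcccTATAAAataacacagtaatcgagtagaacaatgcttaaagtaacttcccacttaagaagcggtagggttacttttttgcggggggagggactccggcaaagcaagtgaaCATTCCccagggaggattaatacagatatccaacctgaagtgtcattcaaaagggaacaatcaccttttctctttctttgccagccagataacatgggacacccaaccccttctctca

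The 6 genes had 9 start sites, with 3 for Limch1 and 2 for Ly6c1, and no motif was held by most of their windows. AP-1 was found in 1 of the 9 windows (that of Procr) and in 6.75% of all 32817 windows of this length, and TEAD in 1 window (that of Dpp4) and 12.6% of all. The TATA box stood in 3 of the 9 windows and 12.4% of all, the CCAAT box in 3 and 33.8%, and the SP motif in 2 (of Sema3c and Limch1) and 32.7%. The bases of G and C made up 43.6% of the Dpp4 window and 78.4% of the Sema3c window. These matches describe the letters alone.

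In FAPs, Pi16 was the only member with a higher level in diaphragm than in quadriceps, and the other 7 were lower there. Pi16 was at 2275 CPM (2255 to 2295) in quadriceps and 3433 CPM (3408 to 3457) in diaphragm, a ratio of 1.51 (1.49 to 1.53). Its spread over cells differed more than its level. In quadriceps, Pi16 UMIs per 10000 had a median of 2.02, with 0 at the 10th percentile and 81.1 at the 90th, and the richest 10% of cells held 55.3% of its UMIs. In diaphragm the median was 24.5, with 4.30 at the 10th percentile and 71.9 at the 90th, and the richest 10% held 34.0%. Pi16 was thus patchy in quadriceps FAPs and present in nearly all diaphragm FAPs.

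With every cell thinned to 3000 UMIs, so that depth was equal, 51.6% of quadriceps FAPs (49.3 to 53.9) and 92.9% of diaphragm FAPs (91.6 to 94.1) had a Pi16 UMI. The share was far lower in B cell-like and T cell-like cells. At 1000 UMIs per cell and with no mitochondrial limit, the share with a Pi16 UMI was 1.86% in quadriceps B cell-like cells (median depth 2997 UMIs) against 36.6% of FAPs (median 10720). It was 4.30% in diaphragm T cell-like cells (median 5087 UMIs) against 79.7% of FAPs (median 12554).

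**Figure D1:**
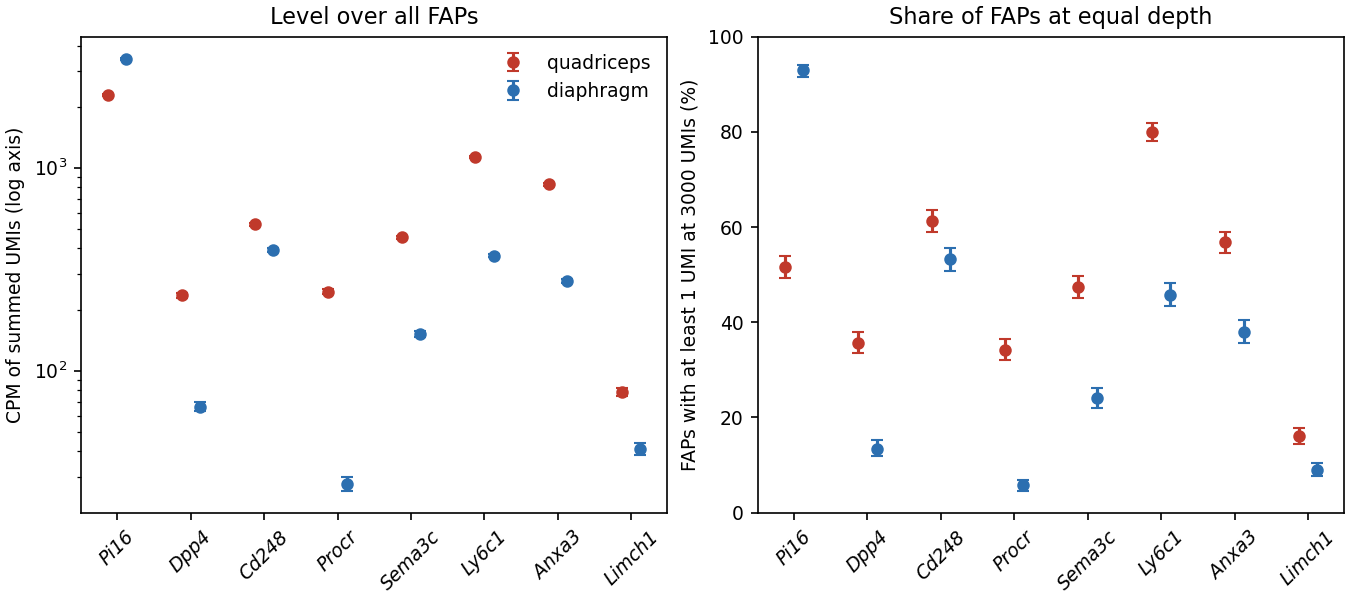
Levels of the 8 members over quadriceps (red) and diaphragm (blue) FAPs. Left, CPM of UMIs summed over all FAPs of a tissue on a log axis; right, percent of FAPs with at least 1 UMI after thinning to 3000 UMIs; points are the values of 1 library each and bars are 95% counting intervals. Pi16 lies higher in diaphragm in both panels and the other 7 lie lower, with Procr at 245 CPM against 27.8.

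Dpp4 was at 235 CPM (229 to 241) in quadriceps and 66.5 CPM (63.1 to 70.0) in diaphragm, 3.53 times lower. At 3000 UMIs it was seen in 35.7% and 13.4% of FAPs. Procr was at 245 CPM (238 to 252) and 27.8 CPM (25.6 to 30.1), 8.83 times lower in diaphragm, the largest tissue difference among the members. It was seen in 34.2% and 5.68% of FAPs, and in diaphragm the richest 10% of cells held 88.3% of its UMIs. At full depth, Dpp4 had a UMI in 54.2% and 32.9% of FAPs and Procr in 57.3% and 14.3%, so the shares depend on the depth at which they are read.

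Ly6c1 was at 1130 CPM (1116 to 1145) in quadriceps and 369 CPM (361 to 378) in diaphragm, with 80.0% and 45.8% of FAPs positive at 3000 UMIs. Sema3c was at 454 CPM (446 to 463) and 152 CPM (147 to 157), with 47.4% and 24.0% positive. Anxa3 was at 827 CPM (815 to 839) and 277 CPM (270 to 284), with 56.8% and 38.0% positive. These 3 genes were lower in diaphragm by a similar factor, 3.06, 2.99 and 2.99.

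Cd248 and Limch1 were lower in diaphragm by less than 2-fold. Cd248 was at 526 CPM (517 to 536) in quadriceps and 395 CPM (386 to 403) in diaphragm, with 61.3% and 53.2% of FAPs positive at 3000 UMIs. Limch1 was at 78.8 CPM (75.1 to 82.6) and 41.1 CPM (38.5 to 43.9), with 16.1% and 8.93% positive. In all, 5 of the 8 members were more than 2-fold lower in diaphragm and none was 2-fold higher, where 2.85% of the 3303 genes that reached 50 CPM in either tissue were 2-fold lower, 3.72% were 2-fold higher and 6.57% were past 2-fold in either direction. The median log2 change of the members was -1.57, and that of all these genes was -0.10. Since the list was made with these tissues in view, the count is a description. Limch1, at a log2 change of -0.92, passed 2-fold (-1.05) when barcodes above the mitochondrial limit were kept. The part of the immediate early and tenocyte genes given above in these differences was not tested.

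The number of members in a cell was spread more widely than their own frequencies would give, with more cells that held nearly all of them. At 3000 UMIs a quadriceps FAP had 3.83 of the 8 members on average with a variance of 5.68, against 1.73 had the genes been independent over cells. The distribution had a high point at 2 members (16.5% of FAPs) and another at 7 (14.3%), with fewer cells between them (9.25% at 5). Cells with 7 or 8 members were 19.5% of quadriceps FAPs, where independence gives 1.82%. In diaphragm the mean was 2.82 with a variance of 2.49, against 1.23 under independence. There the distribution had a single high point at 2 members (26.0%), and 2.50% of FAPs had 7 or 8 members, where independence gives 0.0579%. At least 4 members were seen in 50.5% of quadriceps FAPs (48.2 to 52.8) and 30.2% of diaphragm FAPs (27.9 to 32.5), where independence gives 59.7% and 26.0%.

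**Figure D2:**
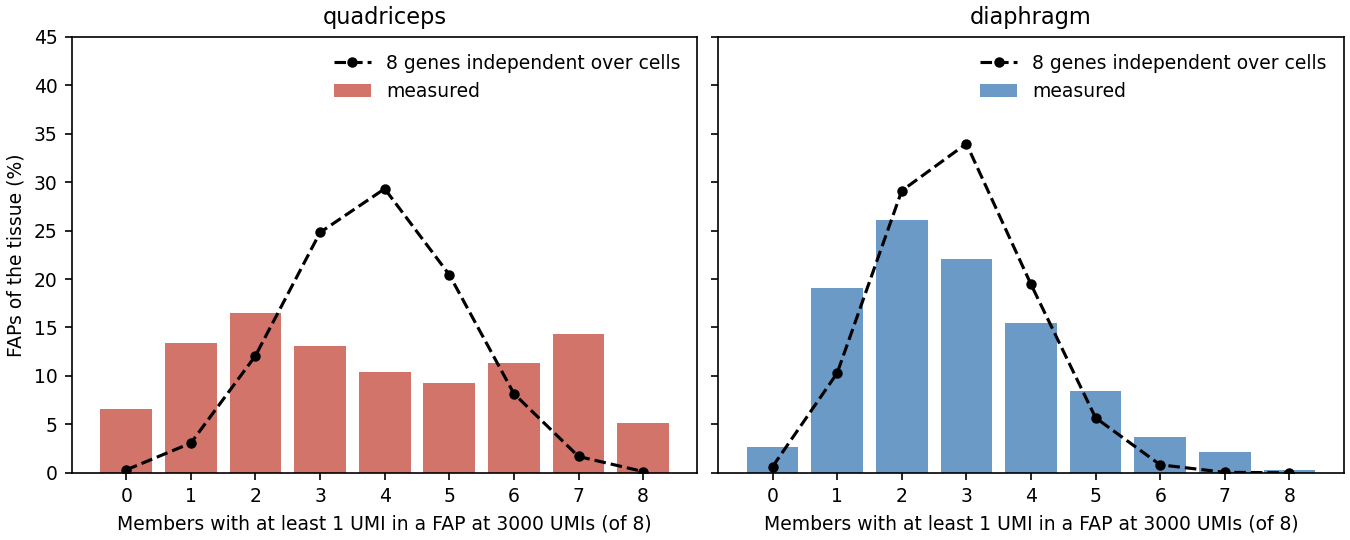
Number of the 8 members with at least 1 UMI in a FAP thinned to 3000 UMIs, as percent of the FAPs of quadriceps (left) and diaphragm (right). Bars are measured shares and the dashed line is the share if the genes were independent over cells of that tissue; the quadriceps bars are high at 2 and at 7 members, while the diaphragm bars have a single high point at 2.

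Pairwise correlations over single FAPs were positive for all 28 pairs in both tissues. Taken over ln(1 + UMIs per 10000), Pearson r in quadriceps averaged 0.600 over 1861 cells, from 0.370 for Ly6c1 and Limch1 to 0.770 for Dpp4 and Anxa3. In diaphragm r averaged 0.365 over 1603 cells, from 0.137 for Pi16 and Procr to 0.540 for Cd248 and Ly6c1. All cells of a tissue share 1 library and differ in depth, and the means fell to 0.437 and 0.211 at 3000 UMIs. Pi16 lost the most between tissues. Its mean r with the other 7 members was 0.641 in quadriceps and 0.305 in diaphragm, while that of Cd248 went from 0.596 to 0.407. Anxa3 and Sema3c had the highest mean r in quadriceps (0.665 and 0.661), and Sema3c in diaphragm (0.436).

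**Figure D3:**
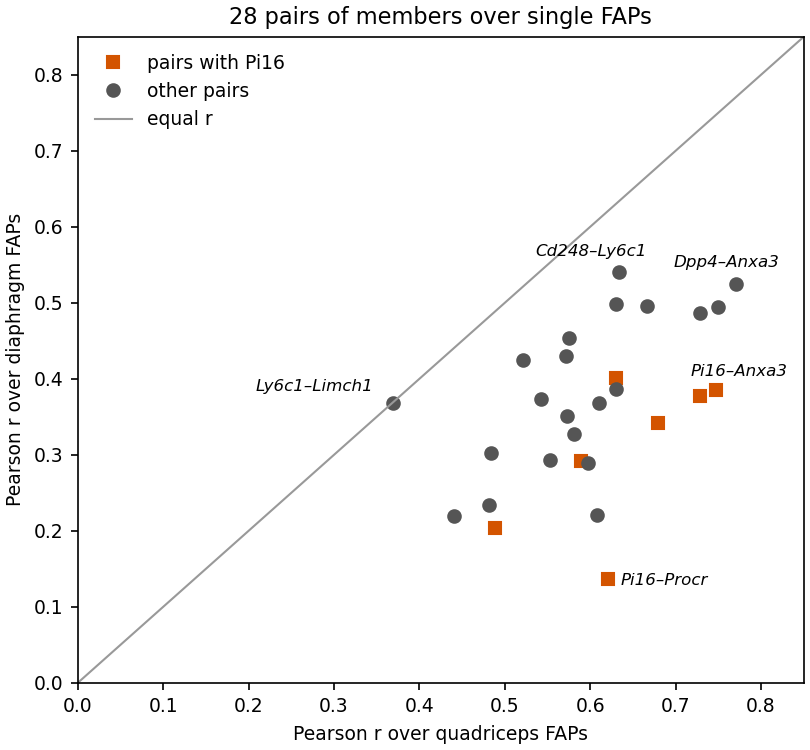
Pearson r of each of the 28 pairs of members over single FAPs at full depth, quadriceps on the x axis and diaphragm on the y axis. Each point is 1 pair, squares are the pairs that include Pi16, and the line marks equal r; every point lies on or below the line, and Pi16 with Procr lies farthest down at 0.137 in diaphragm.

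Pi16 and Dpp4 divided the FAPs differently in the tissues. In quadriceps at 3000 UMIs, 28.2% of FAPs had both genes, 23.4% had Pi16 alone, 7.41% had Dpp4 alone and 41.0% had neither. Had these genes been independent over cells, 18.4% would have had both. The other 6 members followed. Cells with both genes had 4.61 of the 6 on average, cells with Pi16 alone had 2.94, cells with Dpp4 alone had 3.07 and cells with neither had 1.81. Anxa3 went from 179 CPM in the cells with neither to 1842 CPM in those with both, and Procr from 81.0 to 489 CPM. In diaphragm 79.8% of FAPs had Pi16 alone, 13.2% had both and 6.81% had neither, and only 4 cells had Dpp4 alone. Independence gives 12.5% with both in diaphragm, so the pair was seen together little more often than the frequencies of the genes give. There the cells with both had 2.82 of the other 6 members, those with Pi16 alone 1.64 and those with neither 1.05.

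The share of FAPs with a given member was next read against how many of the other 7 the same cell held. Pi16 was seen in 24.0% of the quadriceps FAPs with at most 1 other member and in 79.4% of those with at least 4. In diaphragm it was seen in 89.7% and 97.9%, so that it was present whether or not the others were. Dpp4 went from 5.18% to 62.9% among quadriceps cells and from 4.67% to 28.1% among those of diaphragm. Limch1 moved by similar amounts in the tissues, from 1.61% to 28.7% and from 1.98% to 22.2%. Cd248 did too, from 32.8% to 86.4% and from 34.0% to 81.2%.

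Each FAP was then given a score, the mean of the standardised levels of the members in its tissue, and the lowest and highest terciles of cells were compared. For a member itself the score came from the other 7 only. Pi16 was at 154 CPM in the lower and 5748 CPM in the upper tercile of quadriceps FAPs, 37.3 times higher, and at 2092 and 5196 CPM in diaphragm, 2.48 times higher. Dpp4 was 21.1 times higher in quadriceps (24.2 and 511 CPM) and 8.48 times in diaphragm (15.7 and 133 CPM). Sema3c went from 66.9 to 1004 CPM and from 40.5 to 314 CPM. Anxa3 was 14.7 and 5.46 times higher, and Procr 9.40 and 7.63 times. Limch1 was 16.3 and 14.0 times higher, Cd248 5.48 and 4.23 times, and Ly6c1 3.58 and 3.67 times. The tissues thus stood closest for Ly6c1 and Limch1 and farthest apart for Pi16.

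**Figure D4:**
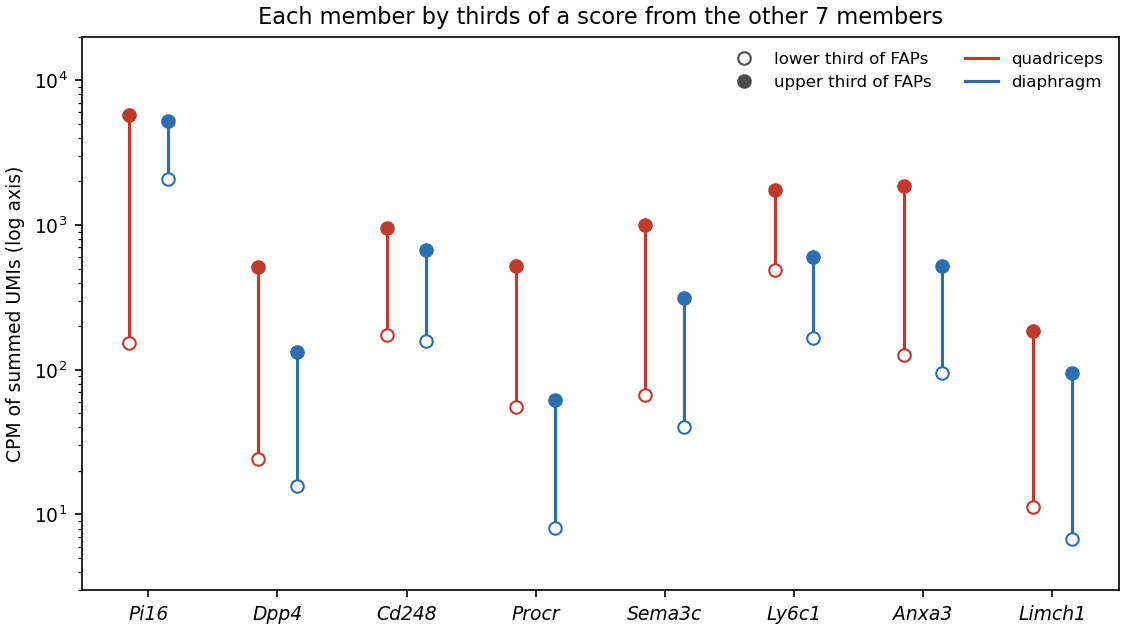
CPM of each member (log axis) in the lower (open circles) and upper (filled circles) tercile of FAPs ranked by a score from the other 7 members, quadriceps in red and diaphragm in blue. Every member is higher in the upper tercile of both tissues, and the lower diaphragm tercile still holds 2092 CPM of Pi16 against 154 CPM in quadriceps.

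The same terciles set the tissues side by side at equal ranks of cells. The score was standardised and cut within each tissue, so equal ranks need not be equal positions in the program. With the score from all 8 members, the upper tercile had 5834 CPM of Pi16 in quadriceps and 5494 CPM in diaphragm, and the lower tercile had 119 and 1641 CPM. The middle tercile had 429 and 2826 CPM, so diaphragm was higher in the lower and middle terciles and not in the upper. This score includes every member, so the levels of each gene in this paragraph are partly set by its own part in the score. With the score from the other 7 members the middle tercile had 509 and 2765 CPM of Pi16. Dpp4 was lower in diaphragm at both ends, with 14.3 against 4.47 CPM in the lower and 524 against 152 CPM in the upper tercile. So was Procr, with 38.2 against 3.86 CPM and 539 against 66.1 CPM, and Ly6c1, with 358 against 86.8 CPM and 1770 against 674 CPM. Cd248 was nearer to equal, at 132 and 108 CPM in the lower and 974 and 713 CPM in the upper tercile.

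Other properties of the cells moved with the score. The upper tercile had more UMIs per cell, with medians of 12140 against 10412 in quadriceps and 14175 against 11836 in diaphragm. Dcn, a gate gene, was at 14279 against 28260 CPM and at 14110 against 23510 CPM. Immediate early genes were at 1205 against 3227 CPM in quadriceps and at 11694 against 15334 CPM in diaphragm, and the tenocyte gene Tnmd at 12.2 against 95.7 CPM and 30.7 against 65.7 CPM. Endothelial markers summed to 3.33 against 13.0 CPM and 13.4 against 28.7 CPM. Their part in the tercile differences was not tested. A score has no natural edge. In quadriceps 247 and 85 cells lay within 0.1 of the lower and upper limits, and in diaphragm 247 and 177.

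Clustering each library showed where the members sat among FAPs. The clusters were made from all variable genes, members included, so their levels there are descriptions. Of the quadriceps FAPs, 95.8% lay in 5 clusters. Cluster 6 (246 FAPs, led by Sbsn, Dmkn and Krtdap) had the highest level of all 8 members, with 9797 CPM of Pi16, 696 CPM of Dpp4 and 2707 CPM of Anxa3. Cluster 2 (383 FAPs, led by Stmn4, Fbn1 and Efemp1) came next for all 8, with 3176 CPM of Pi16 and 402 CPM of Dpp4. Cluster 4 (221 FAPs, led by Cxcl14, Hsd11b1 and Mme) had the lowest level of all 8, with 127 CPM of Pi16 and 20.3 CPM of Dpp4. Cluster 3 (414 FAPs, led by Scg3, Nov and Hmcn1) was uneven, with 1113 CPM of Ly6c1 and 150 CPM of Dpp4 but 379 CPM of Pi16.

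In diaphragm the 5 clusters held 99.7% of FAPs. Clusters 3 (407 FAPs, led by Efhd1, Stmn4 and Cmah) and 4 (180 FAPs, led by Ptx3, Cxcl13 and Sult1e1) had the 2 highest levels of every member. Pi16 was at 5245 and 4043 CPM there and Dpp4 at 123 and 142 CPM. Pi16 varied 3.27-fold from the highest to the lowest of these 5 clusters, against 77.2-fold in quadriceps, while Dpp4 still varied 18.7-fold. Cluster 1 (302 FAPs, led by Sfrp2, Tnmd and Fmod) split the members. It had 3522 CPM of Pi16 but the lowest Ly6c1 (36.3 CPM) and the lowest Limch1 (3.70 CPM) of the tissue. That cluster also had 3 raised tenocyte markers and stayed unnamed, and Tnmd was at 236 CPM in its FAPs.

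Genes from 2 lists chosen with earlier results known were read against the terciles. The first held 25 genes of the progenitor program. The limit was at least 50 CPM in whichever tercile was higher, in both tissues, and 21 genes met it. Of these, 16 were 2-fold higher in the upper tercile in both tissues and none was 2-fold lower. Among 3015 genes outside the 8 members that met the limit, 3.02% were higher. In both tissues Efhd1, Uchl1, Stmn4, Smpd3, Opcml and Aldh1a3 reached 50 CPM in the upper tercile alone, so the count is partly set by the limit. The median log2 difference of the list was 2.13 in quadriceps and 1.79 in diaphragm, and that of the 3015 genes -0.01 and 0.06. Efhd1, which encodes a mitochondrial calcium-binding protein, was at 30.8 and 553 CPM in the lower and upper tercile of quadriceps and at 5.24 and 164 CPM in diaphragm. Uchl1, a ubiquitin hydrolase, was at 5.59 and 178 CPM and at 4.16 and 79.3 CPM. Stmn4, a microtubule regulator, was higher by 5.34 and 3.48 on the log2 scale, Smpd3, a sphingomyelinase, by 4.88 and 3.37, and Opcml, a cell adhesion protein, by 4.36 and 3.10. Emb, an adhesion gene on the list, went the other way at low counts, with log2 differences of -1.96 and -1.65 and at most 13.9 CPM.

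The second list held 22 genes of resident interstitial FAPs. Of 18 that met the same limit, 11 were 2-fold lower in the upper tercile in both tissues and none was higher. Among the 3015 genes outside the members, 2.29% were lower. Clec11a and Gdf10 reached 50 CPM in the lower tercile alone in both tissues, so this count too is partly set by the limit. The median log2 difference of the list was -3.18 in quadriceps and -1.13 in diaphragm. Cxcl14, a chemokine, was at 3409 and 75.3 CPM in the lower and upper tercile of quadriceps and at 1039 and 96.8 CPM in diaphragm. Mgp, the calcification inhibitor matrix Gla protein, was at 6059 and 164 CPM and at 6714 and 897 CPM. Apod, a lipid carrier, was lower, with log2 differences of -3.11 and -2.03, Gdf10, a BMP family ligand, had -3.40 and -2.00, and Clec11a, a secreted lectin, -3.74 and -1.76. The basement membrane gene Col4a1 passed 2-fold in quadriceps alone, with values of -2.25 and -0.63, and whether the tissues differ was not tested.

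The partners of the members were read in the same way. Of the 8 listed receptor genes of class 3 semaphorins, only the Sema3c co-receptor Nrp1 had at least 50 CPM in both tissues. It was 2-fold lower in the upper tercile in both, at 328 and 120 CPM in quadriceps and 230 and 79.1 CPM in diaphragm, opposite to its ligand. Nrp2 was highest in the quadriceps endothelial-like cluster, at 458 CPM. In the protein C system, Thbd (thrombomodulin) was higher with Procr, at 83.5 and 323 CPM in quadriceps and 79.1 and 235 CPM in diaphragm. Proc, the ligand gene, had no UMI in FAPs. F2r, the thrombin receptor, was at 65.2 and 2.82 CPM in quadriceps but at 77.0 and 40.0 CPM in diaphragm. Of the Dpp4 relatives and partners, Fap differed little, with log2 differences of -0.38 and 0.04, and Cxcl12, a chemokine that Dpp4 cuts, was lower, at -1.89 and -0.85.

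Relatives of the members did not all follow them. Among CAP domain genes, Crispld2 ran opposite to Pi16, at 603 and 24.8 CPM in quadriceps and 469 and 116 CPM in diaphragm, while Glipr2 differed little (0.12 and 0.56 on the log2 scale). Among Ly6 genes, Ly6a (Sca-1) was higher by 1.29 and 1.56, and Ly6e was at -0.42 and 0.04. Among the 8 listed annexin relatives of Anxa3, only Anxa1 was 2-fold higher in both tissues (1.88 and 1.31). Anxa5 was at -1.29 and -0.10, and Anxa2 at 0.47 and 0.76. Clec14a, a relative of Cd248, was at low levels, with at most 46.4 CPM in a tercile of FAPs.

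Among 8241 other genes seen in at least 10% of FAPs of each tissue, the most like the score, by the smaller r of the tissues, were Efhd1 (0.814 in quadriceps and 0.727 in diaphragm), Emilin2 (0.788 and 0.637), Fbn1 (0.701 and 0.636), Adgrd1 (0.673 and 0.614) and Fn1 (0.750 and 0.604). Emilin2, Fbn1 and Fn1 encode matrix glycoproteins, and Adgrd1 an adhesion G protein-coupled receptor. The most opposite were Igfbp7 (-0.833 and -0.679), Mgp (-0.663 and -0.673) and Cst3 (-0.690 and -0.585). Igfbp7 encodes a secreted binding protein of growth factors and Cst3 the protease inhibitor cystatin C. The genes most like Pi16 alone were Mfap5 (0.670 and 0.581), Fbn1 and Emilin2, with no other member among its first 5. For Dpp4 the first were the members Anxa3 and Sema3c. These correlations are over cells of 1 library per tissue.

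Each member was also set against the score of the other 7. The members were selected on their shared pattern over these same cells, so high ranks partly follow from that choice and are descriptions. Anxa3 (r = 0.832) and Sema3c (0.826) lay above every one of the 8241 other genes in quadriceps, and 1 gene lay above Pi16 (0.797). In diaphragm 52 genes lay above Pi16 (0.444) and 102 above Procr (0.353), while 1 lay above Sema3c (0.661).

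Outside FAPs most members were low, and the clearest exceptions were Ly6c1 in endothelial-like and Limch1 in Schwann cell-like cells. Classes were compared with no mitochondrial limit, since most endothelial-like and mural-like barcodes exceed it. Ly6c1 was highest in the 58 quadriceps endothelial-like cells, which were led by the lymphatic genes Ccl21a and Mmrn1, at 2321 CPM (2107 to 2551) against 1021 CPM (1010 to 1033) in FAPs. It was then at 47.4 CPM or less in all other named quadriceps classes outside the FAP clusters. An unnamed quadriceps cluster led by Apod and Angptl7 had 58 barcodes outside the gate. These held 244 CPM of Ly6c1 (158 to 360) and 205 CPM of Pi16 (127 to 313). Limch1 was highest in the 167 Schwann cell-like cells, at 988 CPM (923 to 1057), and 60.5% of them had a UMI at 1000 UMIs. It was at 127 CPM (92.1 to 171) in tenocyte-like, 124 CPM (78.5 to 186) in endothelial-like cells and 75.6 CPM (72.4 to 78.9) in FAPs. The endothelial-like interval overlapped that of tenocyte-like cells and, at its lower end, that of FAPs. Anxa3 was at 715 CPM in FAPs, 334 CPM (256 to 428) in endothelial-like and 172 CPM (130 to 222) in tenocyte-like cells.

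The 60 quadriceps tenocyte-like cells carried part of the program. They had 112 CPM of Dpp4 (79.6 to 154) against 206 CPM in FAPs, and 151 CPM of Sema3c (112 to 198) against 410 CPM, but 17.8 CPM of Pi16 and no Cd248 UMI, where a limit of 3 counts allows up to 8.88 CPM. Dpp4 was also at 44.6 CPM (30.1 to 63.6) in B cell-like cells and 67.8 CPM in an unnamed cluster of 75 cells led by Lyz2 and S100a9. Procr was at 37.7 CPM in endothelial-like cells against 216 CPM in FAPs. Of the 8 members 6 were highest in FAPs in quadriceps, leaving out 109 shallow barcodes of the FAP-like clusters that missed the gate. In diaphragm 7 of 8 were, leaving out 32 such barcodes, with Limch1 at 48.6 CPM (31.1 to 72.3) in 45 mural-like cells and 36.0 CPM (33.7 to 38.4) in FAPs, which overlap. In both tissues all 8 members were higher in the barcodes left out than in the gated FAPs, with Pi16 at 2834 against 1943 CPM in quadriceps and 4943 against 3446 CPM in diaphragm. Some of these intervals overlapped. Ly6c1 was at 1077 CPM (972 to 1190) against 1021 CPM (1010 to 1033) in quadriceps. Dpp4 was at 76.6 CPM (36.8 to 141) against 62.9 CPM (59.9 to 66.0) in diaphragm. An unnamed diaphragm cluster of 135 barcodes, with a median of 2491 UMIs and 19.2% of them mitochondrial, still held 1536 CPM of Pi16.

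**Figure D5:**
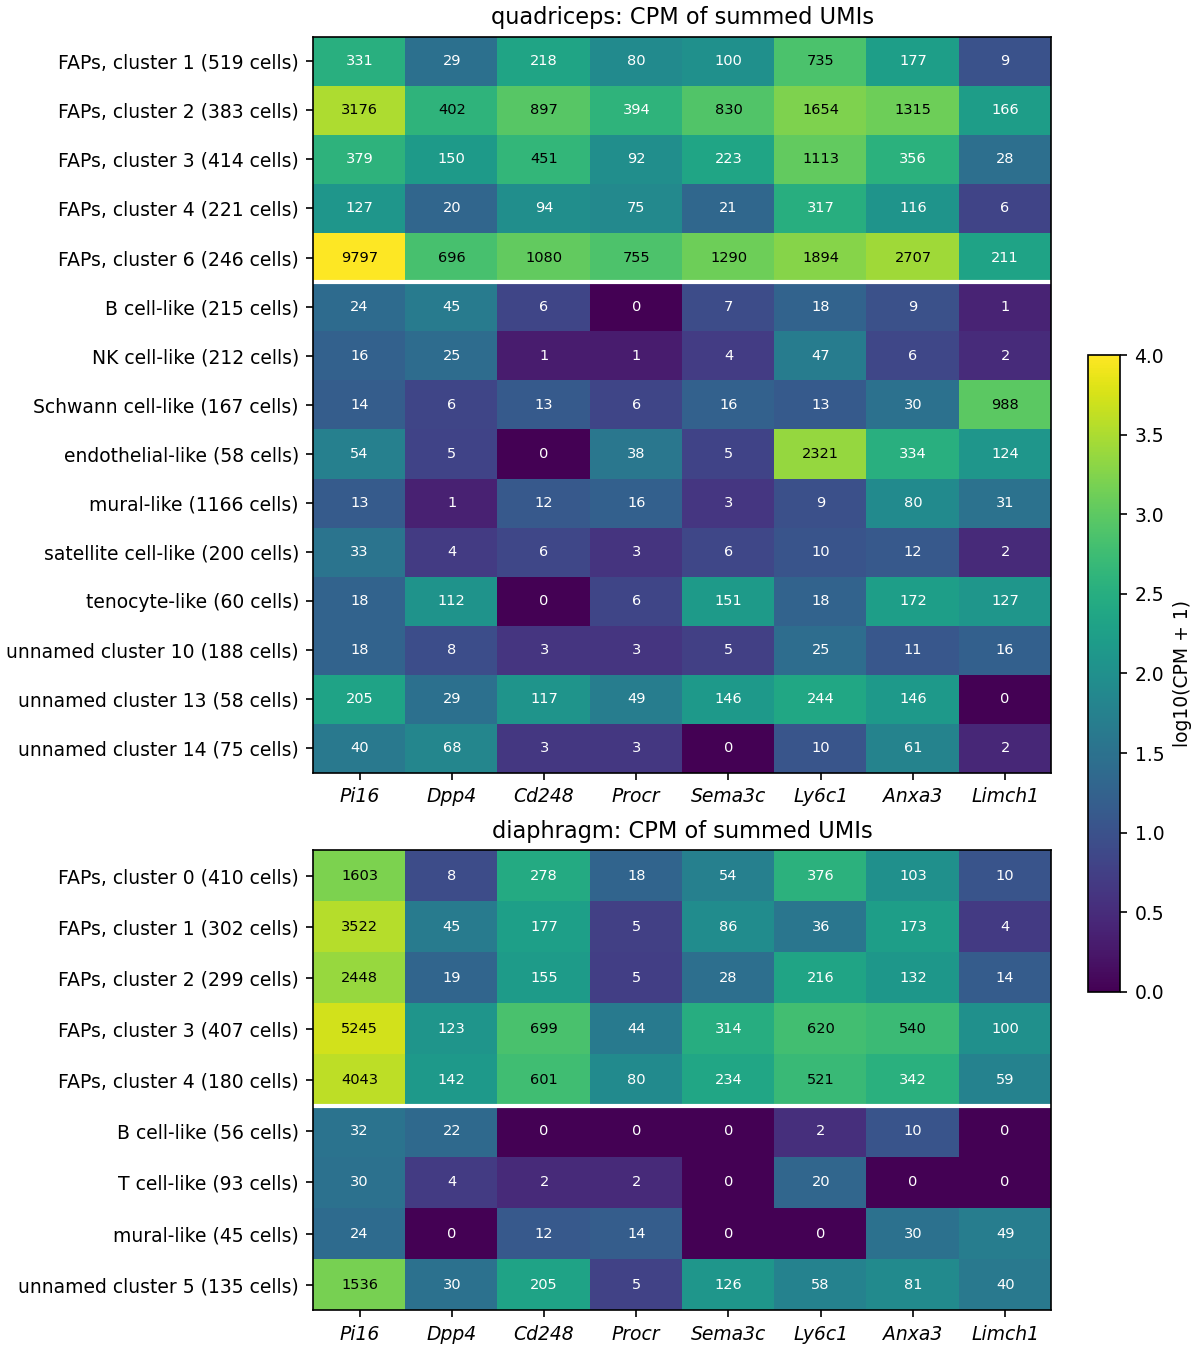
CPM of each member (printed numbers; colour is log10 of CPM + 1) in the FAP clusters, above the white line, and in other classes below it, quadriceps in the upper and diaphragm in the lower panel. Pi16 ranges from 127 to 9797 CPM over quadriceps FAP clusters and from 1603 to 5245 CPM over those of diaphragm, and Ly6c1 in endothelial-like and Limch1 in Schwann cell-like cells stand out below the line.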

How the data were processed

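The authors deposited raw UMI counts per gene and barcode for each library, made from 10x 3′ libraries. The submitters' processing notes name Cell Ranger 3.0.0 and Seurat, and the study aligned reads to GRCm38 (mm10). Gene positions came from GENCODE M21 on that build. The 8 members and all gene lists were chosen with earlier results of these data known.

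From the deposited counts, barcodes were kept with at least 1000 UMIs, at most 5% mitochondrial UMIs (13 genes; the limit of 0.05% printed in the study's methods left 1 cell per library and was read as 5%) and UMIs not above the median log10 plus 3 scaled median absolute deviations. FAPs were then gated. No doublet caller was run; FAPs holding other cell types' UMIs were left out as an alternative. CPM are of UMIs summed over cells, with exact Poisson intervals for levels, exact conditional binomial intervals for ratios and exact binomial (Clopper-Pearson) intervals for shares, all 95%. UMIs limit repeat counting of molecules, and intervals cover counting error only. Log2 differences used a pseudocount of 1 CPM, a minimum of 50 CPM in the higher group and a 2-fold threshold. Shares with a UMI were taken after thinning each cell to 3000 UMIs (13 quadriceps and 2 diaphragm FAPs were shallower) or, for classes, 1000. Classes came from Leiden clustering (leidenalg 0.10.2, resolution 0.5, 2000 variable genes, 10 components, 20 neighbours, no mitochondrial limit) and were named from marker lists: a marker was seen with a UMI in 25% of cells and 4-fold above the lowest cluster, raised with 10% and 2-fold above other cells, and a name needed 3 seen markers. Genes were named by fixed rules: the 8 members, the 5 genes of each list that differed most in its direction in the tissue where they differed less, any past 2-fold against its list in both tissues, the listed partners and relatives, and the genes most like the score. Col4a1 and the leading genes of clusters were chosen after their values were seen. No test was run, since each tissue had 1 library. The code was tested on simulated data. Python 3.11.15, numpy 2.4.6 and scipy 1.17.1 were used.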

Additional observations from a re-analysis of the deposited data

Results flagged for a closer look

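Some barcodes pass the FAP gate but exceed the mitochondrial limit. They entered the comparison of classes and the alternatives run with no such limit. The main FAP levels, shares at 3000 UMIs, correlations and terciles were read without them. The members were present in these barcodes. In quadriceps 633 such barcodes had a summed level of the 8 genes of 2658 CPM (2617 to 2698), against 5772 CPM in the FAPs kept. In diaphragm 454 such barcodes had 4129 CPM (4072 to 4187) against 4761 CPM. Pi16 was at 798 CPM in the quadriceps and 3504 CPM in the diaphragm barcodes, and Dpp4 at 108 and 46.7 CPM. Both sums are far above the level that 3 counts would give.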

How the results depend on the processing

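No direction was reversed by any alternative run. The count of members 2-fold apart between tissues (5) stayed between 5 and 6 over 10 alternatives, the progenitor list count (16) between 14 and 19 and the resident list count (11) between 9 and 16 over 12 alternatives each. These include a score without Pi16, chosen after seeing the data, which gave 16 and 10. Thinning to 3000 UMIs took the mean r of quadriceps from 0.600 to 0.437 and that of diaphragm from 0.365 to 0.211. The share of FAPs with at least 4 members, 50.5% in quadriceps and 30.2% in diaphragm, moved with the depth it was read at, to 28.9% and 9.54% at 1000 UMIs and 60.2% and 42.6% at 5000 UMIs. With no mitochondrial limit it was 45.5% and 26.7%, and without FAPs with at least 2 Tnmd UMIs it was 33.8% in diaphragm. With no mitochondrial limit Limch1 passed 2-fold (-1.05). With at most 5% mitochondrial UMIs 7 of 8 members in quadriceps and 8 of 8 in diaphragm were highest in FAPs, where the endothelial-like and mural-like classes had fewer than 20 cells and were not compared. No paired analysis was possible because each tissue had 1 library, and for the same reason no replicate could be left out.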
